A study of Capra hircus with 9 samples.

Results

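The muscle miRNAs of the goat mammary gland were followed library by library through late lactation, the dry period and late gestation. They are the 5 mature miRNAs listed as chi-miR-1, chi-miR-133a-3p, chi-miR-133b, chi-miR-206 and chi-miR-499-5p, taken by name from a table of 1359 miRNAs, and all 5 were among the 696 miRNAs with enough reads to be tested. The tissue came from 9 healthy Laoshan dairy goats of parity 3, on average 4 years old, kept on a single farm. There were 3 goats per stage, each with its own small RNA library. Late lactation (LL) stood at 240 and the dry period (DP) at 300 days after kidding, and goats in late gestation (LG) had been mated 140 days earlier. The labels name no treatment or altered allele that set the stages apart, and every goat received sodium pentobarbital before its tissue was taken at slaughter, so no goat was followed from stage to stage.

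miRNAs are short RNAs that lower the output of messenger RNAs with matching sites. The miRNAs examined here are the classical "myomiRs" of striated muscle, where myogenic factors switch them on. miR-1 favours the differentiation of muscle cells, miR-133a and miR-133b are known for effects on the proliferation of myoblasts, miR-206 is typical of skeletal muscle, and miR-499 comes from an intron of a myosin heavy chain gene used in heart and slow fibres. The udder is a skin gland of milk-secreting epithelium, myoepithelium, stroma, vessels and fat, and striated muscle is not one of its parenchymal tissues. miR-1 and miR-206 share a seed, and the mature forms of miR-133a and miR-133b are nearly identical, so reads may have been divided between such relatives and their counts are uncertain as those of separate miRNAs.

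In the goat genome (ARS1.2, RefSeq annotation), the members lie at 3 places. MIR1 (chromosome 13 from 54063787 to 54063879) and MIR133A (chromosome 13 from 54053489 to 54053583) are separated by 10203 bases and overlap no other annotated gene. MIR206 (chromosome 23 from 24591610 to 24591695) and MIR133B (chromosome 23 from 24587517 to 24587621) are separated by 3988 bases, likewise outside other genes, and IL17A is their nearest protein-coding gene. MIR499 (chromosome 13 from 63862859 to 63862978) lies within MYH7B, a myosin heavy chain gene that spans 63851003 to 63875038.

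The counts of a library summed to 13672653 to 34378995. Levels below are counts per 1000000 (CPM) with library sizes scaled by edgeR's TMM method, and values are listed in the order of replicates 1, 2 and 3. A miRNA was called differentially expressed (DE) when its p-value, adjusted over the 696 miRNAs by Benjamini-Hochberg, was under 0.05 and its log2 fold change exceeded 1 in size. With TMM the median log2 fold change of the 696 was 0.12 for DP vs. LL, 0.18 for DP vs. LG and 0.17 for LL vs. LG, and with library size only it was 0.49, −0.022 and −0.42. Changes relative to this median are therefore given beside the fold changes of the members that passed the test. A change of scaling shifts the log2 fold changes of all miRNAs nearly alike, so these relative values hardly move with it by construction. Their narrow range does not show that a call holds under every scaling. In bulk tissue, fewer cells of a type and less RNA per cell cannot be told apart. Epithelial miRNAs (miR-141, miR-200a, miR-200b, miR-200c and miR-429), which mark the labelled tissue, summed to between 13064 and 42110 CPM in every library.

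chi-miR-206 was called higher in the dry period than in either other stage, with and without any single library. It had 22, 57 and 89 counts in LL, 228, 547 and 709 in DP, and 216, 135 and 76 in LG. The corresponding levels were 1.73, 3.77 and 4.80 CPM in LL, 14.3, 25.1 and 30.9 CPM in DP, and 7.41, 5.33 and 1.72 CPM in LG. The lowest DP library thus lay above the highest library of each other stage, whereas LL and LG overlapped. The mean was 23.5 ± 8.43 CPM (SD, n = 3) in DP, 3.43 ± 1.57 CPM (SD, n = 3) in LL and 4.82 ± 2.88 CPM (SD, n = 3) in LG.

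In DP vs. LL the level of chi-miR-206 was 6.79-fold higher (95% interval 2.82 to 16.3), or 2.76 on the log2 scale (SE 0.57, edgeR's quasi-likelihood test, adjusted p = 0.00515). In DP vs. LG it was 4.88-fold higher (95% interval 2.08 to 11.5), or 2.29 on the log2 scale (SE 0.56, same test, adjusted p = 0.00953). Relative to the median miRNA the rise was 2.61 to 2.66 log2 units in DP vs. LL and 2.06 to 2.11 in DP vs. LG under the 6 scalings of the libraries. LL and LG differed by a log2 fold change of −0.48 (95% interval −1.68 to 0.73, adjusted p = 0.625, edgeR), which leaves room for a change in either direction. Both rises passed the test in each of the 9 fits without 1 library, and without DP replicate 3 the log2 fold changes were 2.51 (adjusted p = 0.0128) and 1.81 (adjusted p = 0.0443). With libraries scaled by size after chi-miR-148a-3p, the most abundant miRNA of LL and LG, was left out, the rise over LG was 1.40 on this scale and missed the limit (adjusted p = 0.0541, edgeR).

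**Figure D1:**
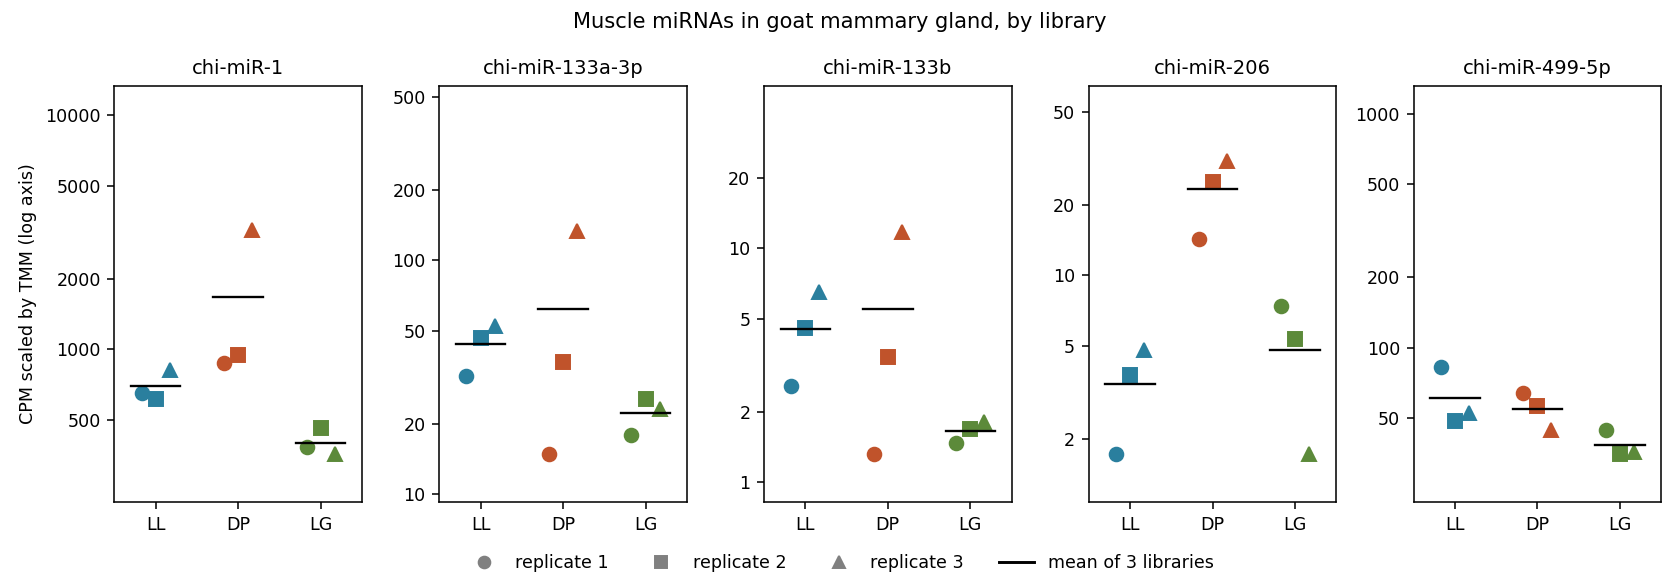
Level of each muscle miRNA (CPM scaled by TMM, log axis that spans the same fold range in every panel) in late lactation (LL), the dry period (DP) and late gestation (LG). Points are single libraries, the symbol gives the replicate and the bar is the mean of 3 libraries; the DP points of chi-miR-206 (14.3 to 30.9 CPM) all lie above the other stages, while the means of chi-miR-1, chi-miR-133a-3p and chi-miR-133b in DP are pulled up by replicate 3.

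chi-miR-1 was the most counted member, with ranks between 38 and 84 among the 1359 listed miRNAs, and took 84.3% to 93.6% of the counts of the 5 members. It had 8310, 9337 and 15108 counts in LL, 13959, 20642 and 73944 in DP, and 11131, 11704 and 15743 in LG. Its level was 652, 617 and 815 CPM in LL, 876, 949 and 3224 CPM in DP, and 382, 462 and 357 CPM in LG. Every DP library lay above every LL and LG library, as for chi-miR-206, but DP replicate 3 alone stood 3.53-fold above the mean of the other DP libraries. LL lay above LG with TMM, whereas with library size only LL (486, 568 and 614 CPM) and LG (438, 549 and 458 CPM) overlapped.

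The rise of chi-miR-1 in DP vs. LG was 4.21-fold (95% interval 2.10 to 8.42), or 2.07 on the log2 scale (SE 0.45, edgeR, adjusted p = 0.00552) and 1.85 to 1.93 relative to the median miRNA under the 6 scalings. With library size less chi-miR-148a-3p it was 1.18 and missed the limit (adjusted p = 0.0521), as for chi-miR-206. In DP vs. LL the log2 fold change of 1.28 (SE 0.44, 95% interval 0.30 to 2.25, adjusted p = 0.0501) was just outside the limit. In LL vs. LG it was 0.80 (SE 0.44, 95% interval −0.17 to 1.76, adjusted p = 0.231), and 0.21 with library size only. With DP replicate 3 left out, the values were 0.95 in DP vs. LG (adjusted p = 0.0138, under the fold limit) and 0.35 in DP vs. LL (adjusted p = 0.293). Without DP replicate 1 or 2 the value in DP vs. LL was 1.47 (adjusted p = 0.0215) or 1.72 (adjusted p = 0.0345) and passed both limits, as it did with DESeq2 (1.29, adjusted p = 0.0361) and with library size only (1.64, adjusted p = 0.0155).

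chi-miR-133a-3p, which shares its locus with chi-miR-1, had 409, 702 and 973 counts in LL, 236, 802 and 3055 in DP, and 524, 646 and 1016 in LG. In CPM this was 32.1, 46.4 and 52.5 in LL, 14.8, 36.9 and 133 in DP, and 18.0, 25.5 and 23.0 in LG. The dry period held both the lowest and the highest library of the series, an 8.99-fold range within 1 stage, against 1.64-fold in LL and 1.42-fold in LG. DP replicate 1 lay below every LG library and DP replicate 3 was 2.54-fold above the next highest library of any stage. No comparison passed the test. The log2 fold change was 0.50 (95% interval −0.85 to 1.85, adjusted p = 0.563) in DP vs. LL, 1.48 (95% interval 0.10 to 2.85, adjusted p = 0.0888) in DP vs. LG and 0.98 (95% interval −0.38 to 2.34, adjusted p = 0.307) in LL vs. LG, all from edgeR's test. Without DP replicate 3 the first of these turned to −0.75 (adjusted p = 0.218) and the DP vs. LG value fell to 0.026 (adjusted p = 0.973), whereas without DP replicate 1 the DP vs. LG value was 1.75 and passed (adjusted p = 0.0126).

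The other arm of the same hairpin, chi-miR-133a-5p, had 7 to 93 counts. Its level was highest in DP replicate 3 (4.06 CPM), as for the 3p arm, but lowest in LG replicate 3 (0.362 CPM), below DP replicate 1 (0.439 CPM). Its counts were 1.57% to 3.56% of those of chi-miR-133a-3p in 8 libraries and 7.33% in LL replicate 1. It was not differentially expressed in DP vs. LL, DP vs. LG or LL vs. LG (adjusted p = 0.984, 0.0865 and 0.130, edgeR).

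chi-miR-133b had 33, 69 and 120 counts in LL, 21, 75 and 268 in DP, and 43, 43 and 80 in LG. The levels were 2.59, 4.56 and 6.48 CPM in LL, 1.32, 3.45 and 11.7 CPM in DP, and 1.47, 1.70 and 1.81 CPM in LG. As for chi-miR-133a-3p, DP replicate 1 was the lowest and DP replicate 3 the highest library, while the LG libraries lay close together. LG was below every LL library with TMM, but with library size only LL replicate 1 (1.93 CPM) lay below LG replicates 2 and 3 (2.02 and 2.33 CPM). The log2 fold change was 0.27 (95% interval −1.15 to 1.70, adjusted p = 0.768) in DP vs. LL, 1.72 (95% interval 0.26 to 3.19, adjusted p = 0.0653) in DP vs. LG and 1.45 (95% interval −0.01 to 2.91, adjusted p = 0.155) in LL vs. LG (edgeR). Without DP replicate 3 the values in the comparisons with DP were −0.91 (adjusted p = 0.212) and 0.33 (adjusted p = 0.648), and without DP replicate 1 the DP vs. LG value was 2.00 and passed (adjusted p = 0.0125). In the fit of LL and LG alone the LL vs. LG value of 1.21 passed as well (adjusted p = 0.0307).

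chi-miR-499-5p was the steadiest member. It had 1053, 738 and 971 counts in LL, 1019, 1228 and 1017 in DP, and 1297, 889 and 1586 in LG, a range of 738 to 1586 over the 9 libraries. Its level was 82.6, 48.8 and 52.4 CPM in LL, 64.0, 56.4 and 44.3 CPM in DP, and 44.5, 35.1 and 35.9 CPM in LG. DP overlapped with both other stages. LL lay above LG without overlap with TMM, but with library size only they overlapped (61.5, 44.9 and 39.4 CPM in LL, 51.0, 41.7 and 46.1 CPM in LG) and the log2 fold change of LL vs. LG was 0.071. The log2 fold change was −0.16 (95% interval −0.79 to 0.47, adjusted p = 0.702) in DP vs. LL, 0.51 (95% interval −0.12 to 1.14, adjusted p = 0.196) in DP vs. LG and 0.67 (95% interval 0.04 to 1.30, adjusted p = 0.138) in LL vs. LG (edgeR). These intervals leave out a change of 2.21-fold or more upwards in DP vs. LG and of 2.47-fold or more in LL vs. LG. DP replicate 3, the highest library for chi-miR-1 and both miR-133 forms, was the lowest DP library for chi-miR-499-5p, at 0.737 times the mean of the others.

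Of the 5 members, 1 was higher in DP than in LL (chi-miR-206), where 26.7% of the 696 tested miRNAs were called and 15.1% were called higher. In DP vs. LG 2 were higher (chi-miR-206 and chi-miR-1), against 31.5% of the tested miRNAs called and 21.6% called higher. No member was lower in DP, whereas 11.6% of the tested miRNAs were lower than in LL and 9.91% lower than in LG. Without 1 library, 61 to 101 miRNAs were called higher and 63 to 108 lower in DP vs. LL. In DP vs. LG these ranges were 87 to 134 higher and 65 to 114 lower. In LL vs. LG 0 members were called by edgeR, DESeq2 or limma-voom, with 1 member (chi-miR-499-5p) at an unadjusted p under 0.05 in edgeR, and 12.8% of the tested miRNAs were called there (8.91% higher and 3.88% lower in LL). These shares move with the scaling: with library size only, 165 miRNAs were higher and 59 lower in DP vs. LL (105 and 81 with TMM), 116 and 85 in DP vs. LG (150 and 69), and 30 and 90 in LL vs. LG (62 and 27). Scaled by library size less chi-miR-148a-3p, the libraries gave the opposite balance in the comparisons with DP, with 32 higher and 157 lower in DP vs. LL, 46 and 193 in DP vs. LG, and 43 and 49 in LL vs. LG, so the share called in each direction is that of TMM. The median log2 fold change of the 5 was 0.50 in DP vs. LL, 1.72 in DP vs. LG and 0.80 in LL vs. LG, beside 0.12, 0.18 and 0.17 over the tested miRNAs. Both medians of the comparisons with DP rested on DP replicate 3, without which the members' were −0.10 in DP vs. LL and 0.40 in DP vs. LG, beside 0.0073 and −0.071 over the tested miRNAs. Without any 1 library the members' medians ranged from −0.10 to 0.97 in DP vs. LL (0.75 without LL replicate 3, 0.85 without DP replicate 1 and 0.97 without DP replicate 2), from 0.40 to 2.00 in DP vs. LG and from 0.50, without LG replicate 3, to 0.73 in LL vs. LG. The comparisons with LL and with LG share the DP libraries, so they are not independent of each other. Without DP replicate 3 chi-miR-206 was the single member called in each comparison with DP. With TMM the libraries did not overlap for 2 members in DP vs. LL, 2 in DP vs. LG and 4 in LL vs. LG, each time with the first stage higher, where 21%, 27.7% and 31% of the tested miRNAs did so. The reverse, with the first stage lower, held for 20.3%, 17% and 17.4% of the tested miRNAs and for no member. With library size only the members' counts were 2, 2 and 0, beside 31.8%, 23% and 10.1% of the tested miRNAs, so the separation of 4 members in LL vs. LG depended on the scaling.

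**Figure D2:**
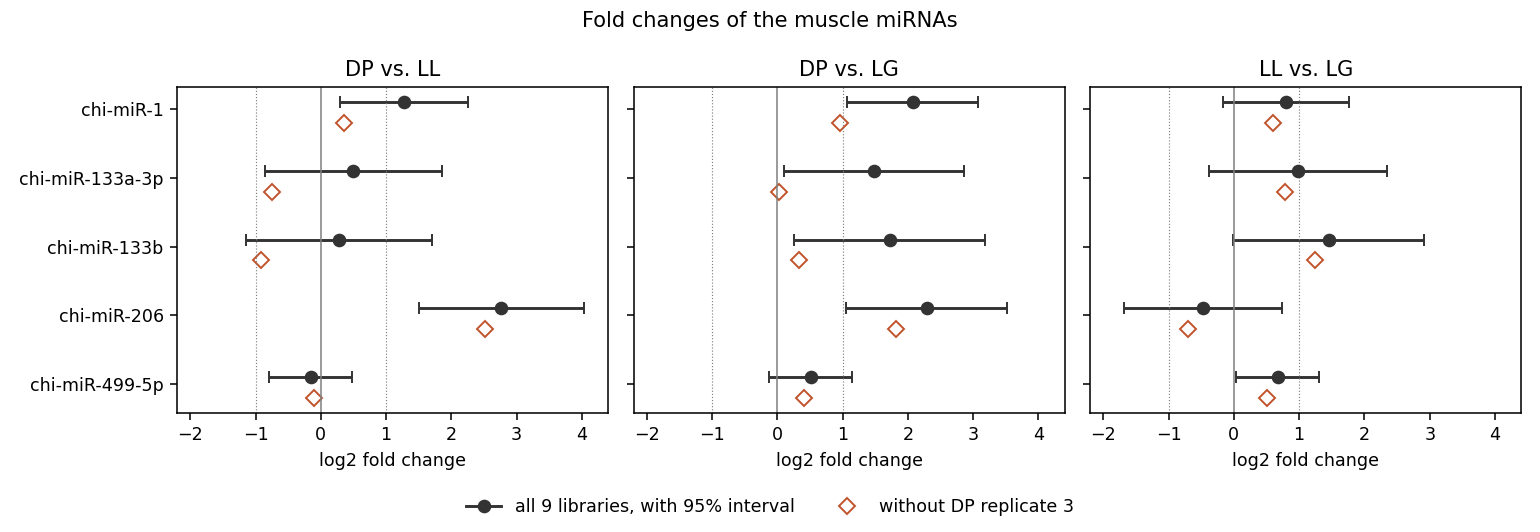
Log2 fold changes of the 5 muscle miRNAs in DP vs. LL, DP vs. LG and LL vs. LG (edgeR, TMM). Filled circles with bars are the fit of all 9 libraries with its 95% interval, open diamonds the fit without DP replicate 3, and dotted lines mark the limit of 1; leaving out that library moves chi-miR-133a-3p in DP vs. LG from 1.48 to 0.026, and chi-miR-206 from 2.29 to 1.81.

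The members were next set against the other miRNAs of DP replicate 3. Relative to the mean of DP replicates 1 and 2 (0.5 CPM added to both), chi-miR-133a-3p was 2.34 log2 units higher there, chi-miR-133b 2.08 and chi-miR-1 1.82, while the median of the 696 tested miRNAs was −0.09. These members lay at or above the 98.6th percentile of the tested miRNAs. chi-miR-206, with 0.64, was at the 88.4th percentile and chi-miR-499-5p, with −0.44, at the 29.5th. In all, 12 tested miRNAs (1.72%) were more than 2-fold higher in DP replicate 3 than in every other library, and chi-miR-1 and chi-miR-133a-3p were among them, ranked 3 and 7. Of the others, the known ones with the largest excess were chi-miR-184 (17.7-fold above the next library), chi-miR-143-5p (2.78-fold) and chi-miR-217-5p (2.77-fold). The same count was 18 in DP replicate 1 and 8 in DP replicate 2, and 0 to 3 in each LL and LG library, with no muscle miRNA in any of them.

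**Figure D3:**
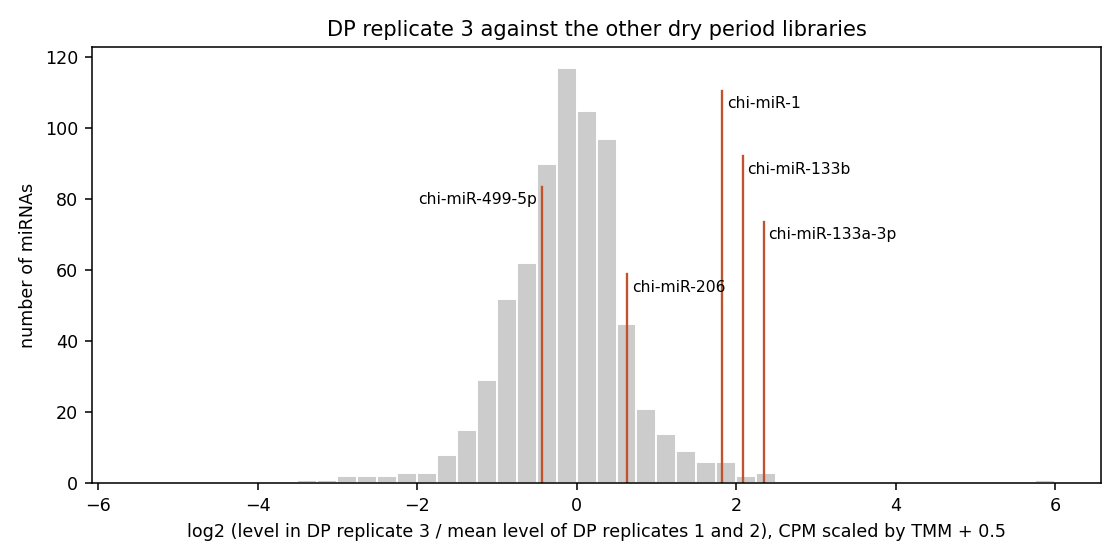
Distribution over the 696 tested miRNAs of the log2 ratio of the level in DP replicate 3 to the mean level of DP replicates 1 and 2 (CPM scaled by TMM with 0.5 added). Vertical lines mark the 5 muscle miRNAs; chi-miR-1, chi-miR-133b and chi-miR-133a-3p lie in the upper tail at 1.82, 2.08 and 2.34, and chi-miR-206 and chi-miR-499-5p within the bulk.

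Ratios of read counts within a library do not depend on how libraries are scaled, and show which members moved together. The counts of chi-miR-133b were 6.66% to 12.3% of those of chi-miR-133a-3p, and in the dry period, where both varied most, 8.90%, 9.35% and 8.77%. As these mature forms are nearly identical, reads may have been divided between them, and whether both counts are of separate miRNAs was not tested. The ratio of chi-miR-133b to chi-miR-206, its neighbour on chromosome 23, was far less steady. chi-miR-206 had 66.7%, 82.6% and 74.2% of the chi-miR-133b counts in LL, but 1086%, 729% and 265% in DP and 502%, 314% and 95% in LG. Expressed per chi-miR-1 count, chi-miR-206 amounted to 0.265%, 0.610% and 0.589% in LL, 1.63%, 2.65% and 0.959% in DP, and 1.94%, 1.15% and 0.483% in LG. chi-miR-133a-3p amounted to 4.92%, 7.52% and 6.44% of the chi-miR-1 count in LL, 1.69%, 3.89% and 4.13% in DP, and 4.71%, 5.52% and 6.45% in LG, so that each DP library lay below all LL and LG libraries.

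An exact permutation test of the F statistic over 1680 assignments of the libraries to stages was run for 6 such ratios (log2 scale, 0.5 added to each count). The smallest p it can give is 0.00357. The test compares all stages at once, LG included, and its p does not belong to a single pair of stages. The differences below are between the highest and the lowest stage mean. The mean log2 ratio of chi-miR-206 to chi-miR-133b was 2.98 higher in DP than in LL (exact permutation p = 0.025, 0.075 adjusted over the 6 ratios). For chi-miR-206 to chi-miR-133a-3p the span between these stages was 2.84 (exact permutation p = 0.05, adjusted 0.1), and for chi-miR-206 to chi-miR-1 it was 1.80 (exact permutation p = 0.118, adjusted 0.118). The mean log2 ratio of chi-miR-133a-3p to chi-miR-1 was 1.04 lower in DP than in LL (exact permutation p = 0.0179, adjusted 0.075). The ratio of chi-miR-133b to chi-miR-133a-3p spanned 0.39 between its highest and lowest stage mean (exact permutation p = 0.1, adjusted 0.118), and that of chi-miR-499-5p to chi-miR-1 spanned 1.30 (exact permutation p = 0.0964, adjusted 0.118). The last of these spans was 0.55 without DP replicate 3, and that of chi-miR-133a-3p to chi-miR-1 was 0.63 without DP replicate 1. After adjustment 0 of the 6 ratios passed, with 2 at an unadjusted p under 0.05, which does not show that the members changed alike.

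**Figure D4:**
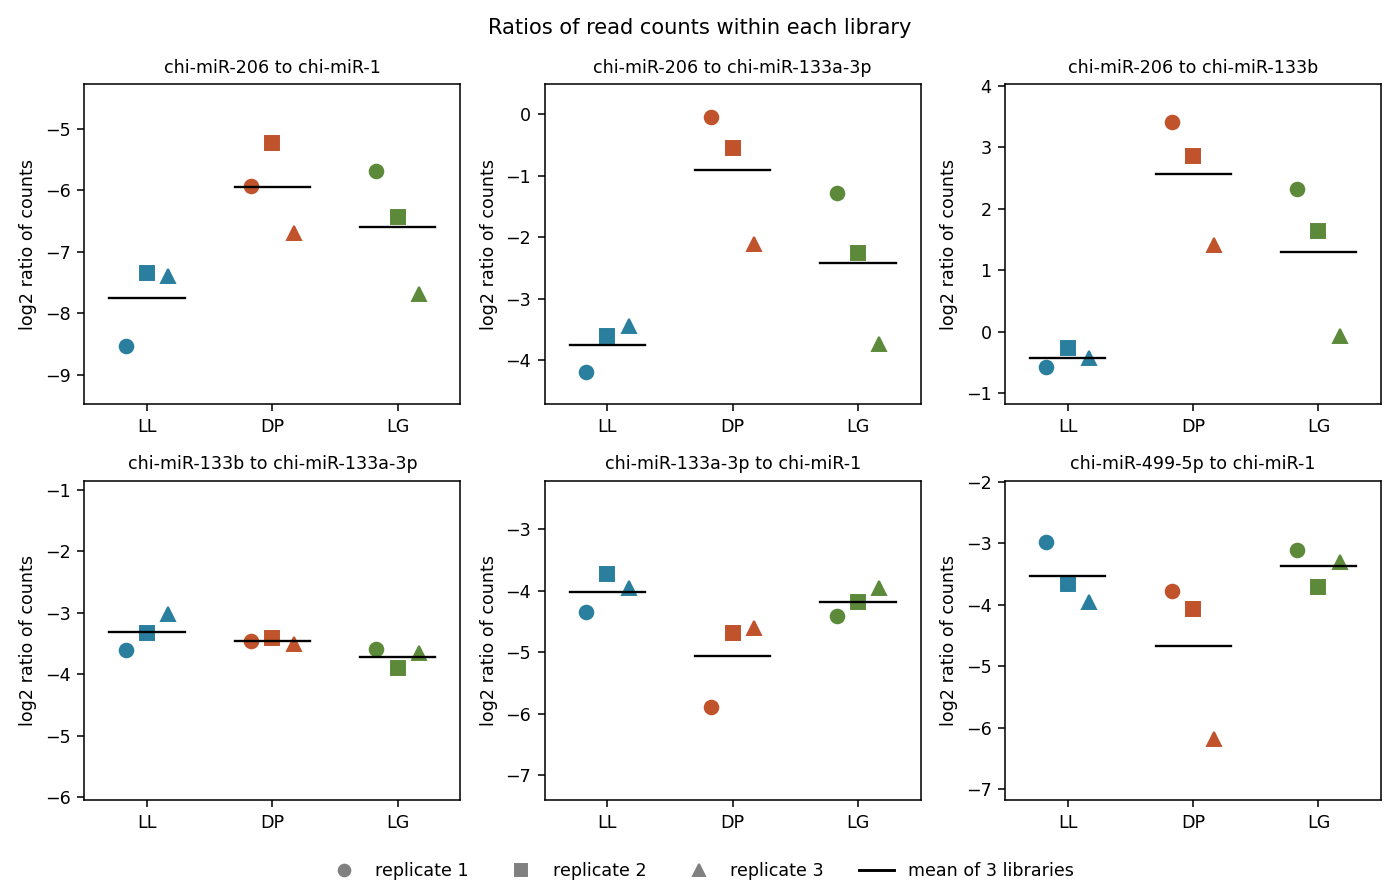
Log2 ratio of the read counts of pairs of muscle miRNAs within each library, by stage, on axes of equal length. Points are single libraries, the symbol gives the replicate and the bar is the mean of 3; chi-miR-133b to chi-miR-133a-3p stays between −3.89 and −3.01, while chi-miR-206 to chi-miR-133b goes from −0.57 in LL replicate 1 to 3.41 in DP replicate 1.

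Over the 9 libraries, the pattern of chi-miR-133b (log2 CPM) followed that of chi-miR-133a-3p with Pearson's r = 0.98, and r = 0.96 over the 8 libraries without DP replicate 3. For chi-miR-1 and chi-miR-133a-3p, whose genes are neighbours, r was 0.78 and dropped to 0.37 without that library. chi-miR-206 and chi-miR-133b had r = 0.34 and, without it, −0.07. These correlations describe libraries that share stage and depth and carry no test. The part of reads divided between the nearly identical miR-133a and miR-133b in their likeness was not tested.

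Among miRNAs other than members, those most alike in pattern were chi-miR-22-5p for chi-miR-1 (r = 0.96, 9 libraries), followed by chi-miR-193b-3p and chi-miR-193a (both 0.95), whose own counts differed by at most 5.26% in any library and may be the same reads. For chi-miR-133a-3p they were chi-miR-22-3p (0.96), chi-miR-143-5p (0.90) and chi-miR-133a-5p (0.86), and for chi-miR-133b chi-miR-22-3p (0.96), chi-miR-140-3p and the predicted NC_030819.1_16860 (both 0.88). Both arms of miR-22, an abundant miRNA of muscle and many other tissues, were thus highest in DP replicate 3, with 75.5 CPM for the 5p and 908 CPM for the 3p arm. chi-miR-206 was most like the predicted NC_030815.1_12533 (0.93), chi-miR-147-5p (0.92) and chi-miR-199c-5p (0.91), whose counts equalled those of chi-miR-199b-5p in every library. The closest to chi-miR-499-5p were both arms of miR-223, a miRNA of granulocytes (0.92 for each), and chi-miR-29c-5p (0.86), with 112 CPM of chi-miR-223-3p in LL replicate 1, the library highest in chi-miR-499-5p as well.

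Markers of other cell types moved with some of these values. chi-miR-208b, a further miRNA of striated muscle encoded in a myosin gene, had 0 counts in all 9 libraries, which allows up to 0.0873 to 0.219 CPM for counting error only, and miR-208a and miR-486 were not analysed here. The other arm of the miR-499 hairpin, chi-miR-499-3p, had 3 counts in LL replicate 1 and in LG replicate 3 and 0 in the others. The list for smooth muscle and myoepithelium (miR-143 and miR-145, both arms, 4 of 4 tested) summed to 31261, 42084 and 125136 CPM in DP, highest in the same replicate 3, while LL had 72094 to 116455 and LG 53225 to 61872 CPM. Of these 4 miRNAs, 0 were called in DP vs. LL (median log2 fold change −0.016) and 1 was higher in DP vs. LG (median 0.69).

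The fibroblast list (miR-199a and miR-214, both arms) was, like chi-miR-206, higher in DP than in the other stages, and in LL vs. LG edgeR called 0 of its 4 members, with 1 (chi-miR-199a-3p) at an unadjusted p under 0.05. Its sum was 17281, 26890 and 29959 CPM in DP, 4847, 6972 and 10480 in LL and 4401, 4780 and 4983 in LG, with 4 of 4 members called higher in DP vs. LL (median log2 fold change 1.78) and in DP vs. LG (median 2.34). The epithelial list fell, with 5 of 5 tested members lower in DP vs. LL (median −1.11) and 3 of 5 in DP vs. LG (median −1.48). With library size only, the DP sums of the fibroblast list (at least 20136 CPM) were still above and those of the epithelial list (at most 24250 CPM) still below every LL and LG library. For red blood cells (miR-144 both arms, miR-451-5p) the sum was 122 to 1284 CPM in DP, 364 to 551 in LL and 87.1 to 168 in LG, with 0 and 1 of 3 called, higher, in DP vs. LL and DP vs. LG. The endothelial list (miR-126, both arms) had 19028 to 31975 CPM in DP, 15853 to 22980 in LL and 14716 to 16363 in LG, with 0 and 1 of 2 called higher. Of the immune list (miR-150, miR-155-5p and miR-223-3p tested), 1 of 3 was higher in DP vs. LL and 3 of 3 in DP vs. LG, and the sum was 767 to 1935 CPM in DP, 581 to 740 in LL and 243 to 360 in LG. In LL vs. LG 1 miRNA of the smooth muscle list and 2 of the immune list were higher. The part of these cell types in the values of the muscle miRNAs was not tested.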

How the data were processed

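Small RNA libraries of mammary gland from 9 goats (LL, DP and LG, 3 each) were analysed. Per the study's methods, the authors used Trimmomatic for trimming and miRDeep2 for alignment to ARS1.2, for the prediction of miRNAs and, by its quantifier, for counting. FastQC 0.11.9, cutadapt 4.2 and Bowtie 1.1.1 are named in the submitters' processing notes. The deposited values are counts without normalization. For LL replicate 3 the deposited column was treated as estimated counts, since the authors gave 2 miRNAs at 209.5, which were rounded.

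Those miRNAs that reached 0.5 CPM in 3 or more libraries entered edgeR 4.0.16 in R 4.3.3 (TMM, glmQLFit, glmQLFTest) in 1 fit of all 9 libraries with stage as the only term. The SE is the absolute log2 fold change divided by the square root of F. DESeq2 1.42.0 and limma-voom (limma 3.58.1), other scalings and filters, and each library left out were alternatives. Patterns were compared as log2 CPM (prior count 2). The procedure was tested on simulated data with a common dispersion for all miRNAs and no outlying library. That test does not show how it behaves with a library like DP replicate 3. The members and marker lists were chosen with earlier results of these data known. Named miRNAs are the members, their other arms, the marker lists, the 3 most alike in pattern per member and those highest in DP replicate 3, the last chosen after their values were seen. Coordinates are those of RefSeq for ARS1.2, in which all 5 members matched a gene. Mature sequences were not used here. Intervals cover the spread between goats, estimated for each miRNA over all stages together. The intervals of LL vs. LG therefore also carry the spread of the DP libraries. Floors (3 counts) cover counting error only, since reads are not independent molecules. Library totals give a floor of 0.0873 to 0.219 CPM.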

Additional observations from a re-analysis of the deposited data

How the results depend on the processing

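The 15 fold changes of the members (5 miRNAs, 3 comparisons) were recomputed under 10 alternatives and without each library, 285 values in all. Of these 265 kept their direction and their side of the limits, and none of the called members reversed. In DP vs. LL, chi-miR-1 passed with DESeq2 (1.29) and library size only (1.64). chi-miR-133a-3p turned to −0.0070 and chi-miR-133b to −0.15 with limma-voom, chi-miR-133b to −0.018 with the replicate block, and chi-miR-499-5p to 0.24 with library size only. In LL vs. LG chi-miR-133b passed (1.21) with the 2 stages alone. Scaling by the library size less chi-miR-148a-3p, chosen after the data were seen, gave −0.13 for chi-miR-133a-3p and −0.34 for chi-miR-133b in DP vs. LL, and in DP vs. LG 1.18 for chi-miR-1 and 1.40 for chi-miR-206, both short of the limit, and −0.34 for chi-miR-499-5p. The median of all miRNAs moves with this scaling (−0.48 and −0.66), and the changes relative to it are those given above. Such relative changes are nearly fixed by construction and do not make up for the calls lost here.

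Without 1 library, the range in DP vs. LL was 0.35 to 1.72 for chi-miR-1, −0.75 to 0.97 for chi-miR-133a-3p, −0.91 to 0.73 for chi-miR-133b, 2.51 to 3.13 for chi-miR-206 and −0.41 to 0.19 for chi-miR-499-5p, which was above 0 without LL replicate 1. In DP vs. LG it was 0.95 to 2.33 for chi-miR-1, 0.026 to 1.75 for chi-miR-133a-3p, 0.33 to 2.00 for chi-miR-133b, 1.75 to 2.62 for chi-miR-206 and 0.20 (without DP replicate 1) to 0.47 for chi-miR-499-5p. In LL vs. LG it was 0.50 to 0.73 for chi-miR-1, 0.65 to 0.93 for chi-miR-133a-3p, 0.97 to 1.5 for chi-miR-133b, −1.12 (without LG replicate 3) to −0.25 (without LG replicate 1) for chi-miR-206 and 0.17 (without LL replicate 1) to 0.71 for chi-miR-499-5p. Of the ratios, 1 changed its call: chi-miR-133b to chi-miR-133a-3p, with spans of 0.26 to 0.54, passed without LL replicate 1 (0.54, adjusted 0.0214 from the exact permutation test). The span of chi-miR-499-5p to chi-miR-1 was 0.55 to 1.75 and that of chi-miR-133a-3p to chi-miR-1 was 0.63 to 1.27. Apart from the libraries named, the cause of these changes was not tested.

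Over all miRNAs, the 89 calls in LL vs. LG became 141 with these stages alone and 33 to 125 without 1 library. Without 1 library the 186 calls in DP vs. LL became 124 to 192, and the 219 in DP vs. LG became 152 to 248. Where 1 library of a stage is left out, the remaining pair is assumed to vary like the other stages. Each goat gave its own library, so the replicate numbers did not pair goats. Of the 9 correlations of same-numbered libraries (−0.11 to 0.21), 3 were above 0.1, and not every library correlated best with its own number. These 3 joined LL and DP replicates 3 (0.21), LL and DP replicates 1 (0.21), and LL and LG replicates 3 (0.18). All were above the correlations of differently numbered libraries of different stages (−0.23 to 0.16). Whether libraries of the same number share a factor was not tested. The replicate block gave 170, 222 and 88 DE-miRNAs in DP vs. LL, DP vs. LG and LL vs. LG, against 186, 219 and 89, and changed no member's call. In DP vs. LL and DP vs. LG, 3 goats per stage limit what can be seen for chi-miR-133a-3p and chi-miR-133b, whose intervals span more than 2 log2 units.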
